A study of Homo sapiens with 12 samples.

Results

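Transcripts of 9 genes that encode proteins of gap junctions and tight junctions were followed through 4 sorted cell populations. The genes were the connexins GJA1, GJB2 and GJC1, the claudins CLDN1, CLDN4 and CLDN7, the tight junction membrane proteins OCLN and F11R, and LSR, a protein of tricellular contacts. They make up 9 of the 18950 genes in the deposited table and were chosen by symbol, partly because GJA1 had been seen to differ in opposite directions between the lines. All values of these genes between the sorts are therefore given as descriptions, without p-values. The samples were 12 RNA sequencing libraries, 3 in each of 4 groups: GFP high and GFP low cells of DU145, and GFP high and GFP low cells of PC3. Both are established human prostate cancer cell lines. Per the labels, cells of each line, grown in DMEM with serum, were sorted by green fluorescent protein (GFP), and the brightest 10% were taken as active and the dimmest 10% as inactive in Wnt/β-catenin signaling, the pathway that the study's title names as heterogeneous in this cancer. The sources used here name neither the reporter that drives GFP nor whether a line was 1 clone. The labels do not tell whether the libraries of 1 group stem from separate cultures or from 1 sort, so the spread between them may be technical.

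Gap junctions are clusters of channels built from connexins, through which neighbouring cells exchange ions and small molecules. Tight junctions seal the space between epithelial cells: claudins form the strands, occludin and F11R (junctional adhesion molecule A) lie within or beside them, and LSR (angulin-1) marks the points where corners of cells meet. In prostate epithelium, β-catenin also has a place at the neighbouring adherens junction, in addition to its part in Wnt signaling.

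Levels are in CPM, the deposited log2 values undone, with their offset of 0.5 counts. They are relative to a scaled library total, which the deposited values imply and which differs from the estimated total count. A log2 fold change is GFP high over GFP low with its standard error (SE) from a limma fit to all 12 libraries. The estimated total count was 13453614 to 21528810 per library. On the scaled totals, a count of 0 allows up to 0.130 to 0.233 CPM, counting error only. Of the 9 genes, 7 passed the minimum for testing (a log2 value of 0 or more in 3 or more libraries), and GJB2 and CLDN7 did not. Among the 12527 genes tested, limma called 1647 higher and 1742 lower in DU145 GFP high than in GFP low at an adjusted p under 0.05, or 1313 and 2305 with the library medians made equal. In PC3 GFP high it called 522 higher and 660 lower, or 509 and 412 with equal medians. LEF1, a Wnt target, averaged 2.21 ± 0.299 CPM in DU145 GFP high, against 0.642 ± 0.265 CPM in GFP low (SD, n = 3 each; limma adjusted p = 0.00508), and 4.41 ± 0.642 against 1.43 ± 0.440 CPM in PC3 (limma adjusted p = 0.0106, or 0.0557 without GFP high replicate 1). The DU145 call of LEF1 was lost without DU145 GFP high replicates 1 and 2, and the PC3 call without PC3 GFP low replicates 2 and 3. AXIN2, another Wnt target, did not pass the minimum. In a limma fit with no minimum it was not called in either line, with adjusted p = 0.304 in DU145 and 0.814 in PC3.

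Some values went against the labels of the lines. PC3 is known for a homozygous deletion that reaches CTNNA1, which encodes alpha-catenin, yet the libraries labelled PC3 held 387 ± 17.0 CPM of CTNNA1 in GFP high, against 408 ± 10.2 CPM in GFP low (SD, n = 3 each). The libraries labelled DU145 held 436 ± 32.4 CPM of CTNNA1 in GFP high, against 486 ± 3.80 CPM in GFP low. EPCAM and CDH1, defining markers of epithelium that both lines are usually described with, reached at most 3 and 11 counts in any of the 12 libraries. KRT19, the third keratin among the epithelial markers looked at, reached at most 4 counts in any library. The keratins KRT8 and KRT18 were present. Their means were 1753 and 1375 CPM in DU145 GFP high, against 2755 and 1956 CPM in GFP low. In PC3 GFP high they were 18.1 and 369 CPM, against 26.1 and 409 CPM in GFP low. The groups are therefore named as labelled, "DU145-labelled" and "PC3-labelled", and each direction below is one between libraries so labelled. Of the markers of other cell types, the summed level of 4 fibroblast genes stayed at or below 1.90 CPM and that of 3 endothelial genes at or below 1.19 CPM in every library. The 3 leukocyte genes summed to 24.8 to 30.7 CPM in DU145-labelled GFP high, against 38.5 to 42.4 CPM in GFP low, and to 6.18 to 7.20 against 3.84 to 6.91 CPM in the PC3-labelled sorts. Almost all of that was CD68, since PTPRC had at most 1 count in any library, and its part in the results below was not tested.

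The promoters of the 3 genes with the largest differences between the sorts are shown for reference, as the 250 bases before the transcription start in RefSeq on GRCh38.p14, with matches to the AP-1 motif TGANTCA in capitals. GJA1 (chr6:121435396-121435645, plus strand) had 1 match, CLDN4 (chr7:73830746-73830995, plus strand) had 2 and LSR (chr19:35248752-35249001, plus strand) had none. The N in the motif stands for any base. The CLDN4 and LSR windows lie inside the GENCODE gene spans given below, so they do not cover the outermost start of either gene.
GJA1: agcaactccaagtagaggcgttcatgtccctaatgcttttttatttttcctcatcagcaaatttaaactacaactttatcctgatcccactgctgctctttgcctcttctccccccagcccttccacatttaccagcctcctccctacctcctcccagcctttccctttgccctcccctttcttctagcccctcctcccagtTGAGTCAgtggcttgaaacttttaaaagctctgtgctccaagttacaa
CLDN4: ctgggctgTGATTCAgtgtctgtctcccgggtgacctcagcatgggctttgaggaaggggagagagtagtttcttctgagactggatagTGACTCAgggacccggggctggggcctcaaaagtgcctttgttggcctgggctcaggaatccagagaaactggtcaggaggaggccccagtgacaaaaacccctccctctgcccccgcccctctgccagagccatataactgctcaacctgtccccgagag
LSR: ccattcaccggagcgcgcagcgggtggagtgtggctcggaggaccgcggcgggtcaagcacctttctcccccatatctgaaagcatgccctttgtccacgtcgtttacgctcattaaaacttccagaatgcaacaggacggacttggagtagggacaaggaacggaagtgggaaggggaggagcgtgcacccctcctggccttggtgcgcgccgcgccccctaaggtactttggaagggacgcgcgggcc
The GJA1 match began 48 bases before the start, and those of CLDN4 began 242 and 161 bases before it. The motif reads the same on both strands, and 6.573% of 35116 promoter windows of this length held it. None of the 9 windows found for 7 of the genes held the letters CTTTGAT, a core of sites for the TCF/LEF factors of Wnt signaling, on either strand, while 2.261% of all windows did. A letter match in such a window is a description of the sequence and says nothing of binding. F11R and GJC1 had no entry in the promoter table used.

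GJA1 encodes connexin 43, a connexin of many human tissues, and lies at chr6:121435577-121449727 on the plus strand (GRCh38, GENCODE 29). In the DU145-labelled libraries it stood at 0.531, 0.211 and 0.349 CPM in GFP high, from 7, 3 and 4 counts, against 1.12, 1.26 and 0.560 CPM in GFP low, from 18, 19 and 8 counts. In the PC3-labelled libraries it stood at 183, 185 and 175 CPM in GFP high, against 49.2, 39.5 and 50.1 CPM in GFP low. Every DU145-labelled GFP high library was below every GFP low one, and every PC3-labelled GFP high library was above every GFP low one. The log2 fold change was -1.45 ± 0.33 in the DU145-labelled sorts and 1.98 ± 0.33 in the PC3-labelled sorts, or 3.94-fold higher in GFP high. The DU145-labelled value rests on 14 counts in GFP high and 45 in GFP low, a ratio of 0.337 in CPM with an exact 95% interval of 0.171 to 0.624 that covers counting error only. The DU145-labelled log2 fold change ranged between -2.87 and -1.10 over the alternative settings, with -2.87 after quantile normalization and -1.81 to -1.10 with single libraries left out. GJA1 passed the minimum for testing only through the PC3-labelled libraries. In sorted bulk cells, fewer GJA1-expressing cells and less GJA1 RNA per cell cannot be told apart.

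GJC1 encodes connexin 45 (chr17:44798448-44830816, minus strand). It stood at 199, 219 and 195 CPM in DU145-labelled GFP high, against 165, 178 and 168 CPM in GFP low. PC3-labelled GFP high libraries held 158, 161 and 155 CPM, against 160, 144 and 160 CPM in GFP low. The DU145-labelled sorts did not overlap, with GFP high above, and the PC3-labelled sorts did. This gave log2 fold changes of 0.26 ± 0.07 in the DU145-labelled sorts and 0.03 ± 0.07 in the PC3-labelled sorts. With the library trends in GC content and transcript length removed, the DU145-labelled value turned to -0.10.

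GJB2 encodes connexin 26 (chr13:20187463-20193010, minus strand), a connexin of many glandular epithelia. It was close to the floor in all 4 groups, with 1, 2 and 1 counts in DU145-labelled GFP high, against 1, 1 and 2 in GFP low. The PC3-labelled GFP high libraries had 0, 1 and 1 counts, against 2, 2 and 2 in GFP low. The summed counts of 2 in GFP high and 6 in GFP low gave a ratio of 0.273 with an exact 95% interval of 0.0269 to 1.52, so no difference was detectable at this depth.

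Among the 19 connexins in the table, GJC1 and GJA1 together took most of the reads per kilobase of the longest annotated transcript, in proportions that differed by line and by sort. In the DU145-labelled libraries GJC1 made up 95.1 ± 0.252% of the connexin reads per kilobase in GFP high, against 93.6 ± 0.285% in GFP low (SD, n = 3 each), and GJA1 made up 0.378 ± 0.193% against 1.26 ± 0.477%. In the PC3-labelled libraries GJA1 made up 72.7 ± 0.384% in GFP high, against 39.8 ± 2.07% in GFP low, and GJC1 26.1 ± 0.205% against 55.1 ± 0.986%. GJA1 was thus the more abundant connexin in PC3-labelled GFP high and GJC1 in PC3-labelled GFP low. The ratio of GJA1 to GJC1 per kilobase was 2.80, 2.80 and 2.74 in the 3 PC3-labelled GFP high libraries, against 0.743, 0.666 and 0.759 in GFP low. With the median in place of the longest transcript length the group means were 2.11 in GFP high and 0.549 in GFP low, on the same sides of 1.

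**Figure D1:**
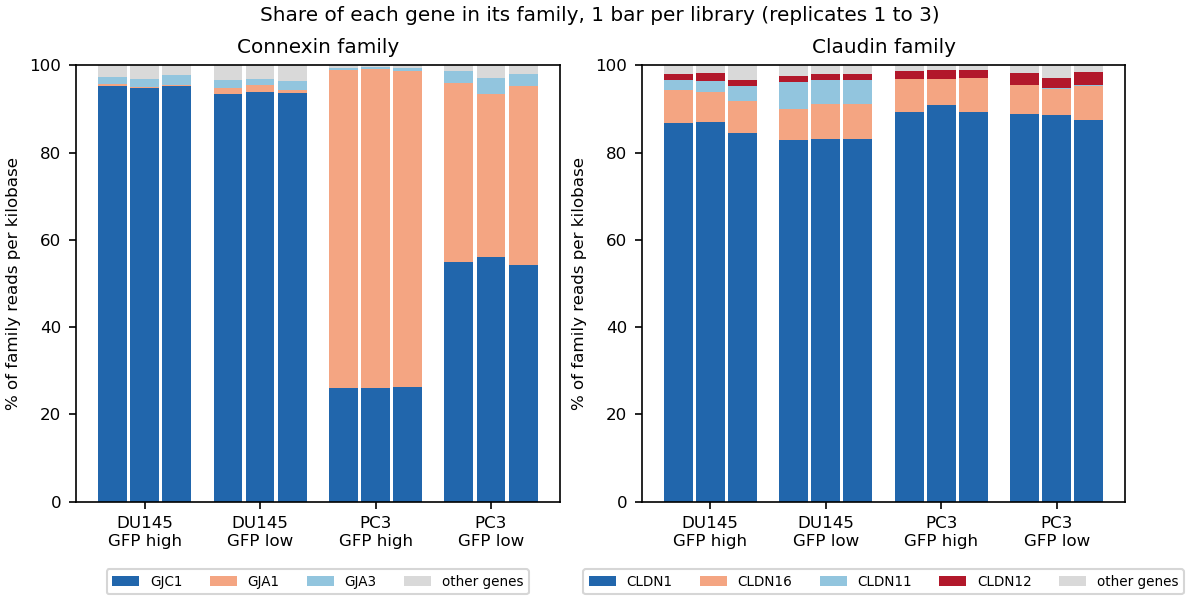
Share of each gene in the reads per kilobase of its family, in percent, 1 bar per library, with connexins on the left and claudins on the right. GJA1 fills 72.2 to 73.0% of the connexin bar in PC3-labelled GFP high and 37.4 to 41.1% in GFP low, while CLDN1 fills 82.8 to 90.9% of the claudin bar in all 12 libraries.

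CLDN1 encodes claudin-1, a sealing claudin of many epithelia (chr3:190305701-190322475, minus strand). It stood at 716, 686 and 536 CPM in DU145-labelled GFP high, against 573, 620 and 536 CPM in GFP low. In the PC3-labelled sorts it stood at 883, 856 and 859 CPM in GFP high, against 714, 616 and 711 CPM in GFP low. The DU145-labelled sorts overlapped, and the PC3-labelled sorts did not, with GFP high above. In log2, GFP high differed by 0.16 ± 0.10 in the DU145-labelled sorts and by 0.35 ± 0.10 in the PC3-labelled sorts. The DU145-labelled value turned to -0.14 with the trends in GC content and length removed, and to -0.10 without GFP high replicates 1 and 2. CLDN1 made up 86.1 ± 1.37% of the claudin reads per kilobase in DU145-labelled GFP high, against 83.0 ± 0.199% in GFP low (SD, n = 3 each). The shares in PC3-labelled GFP high and GFP low were 89.9 ± 0.904% and 88.2 ± 0.741%, over 20 claudins in the table. The next claudin in all 4 groups, CLDN16, took 6.96 to 7.70% as a group mean. With the median in place of the longest transcript length the group means of CLDN16 were 11.6 to 12.8%, and CLDN1 made up 81.4% in DU145-labelled GFP high, against 78.2% in GFP low.

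CLDN4 encodes claudin-4, a claudin of glandular epithelia (chr7:73799542-73832693, plus strand). It stood at 0.672, 1.72 and 0.815 CPM in DU145-labelled GFP high, against 1.18, 1.07 and 1.68 CPM in GFP low. In the PC3-labelled sorts it stood at 0.990, 0.564 and 0.802 CPM in GFP high, from 21, 10 and 18 counts, against 3.06, 4.60 and 1.88 CPM in GFP low, from 52, 82 and 31 counts. The DU145-labelled sorts overlapped, and all PC3-labelled GFP high libraries were below all GFP low ones. Its log2 fold change was -0.39 ± 0.43 in the DU145-labelled sorts and -1.96 ± 0.43 in the PC3-labelled sorts. The summed PC3-labelled counts of 49 in GFP high and 165 in GFP low gave a ratio of 0.243 in CPM with an exact 95% interval of 0.173 to 0.336, counting error only. CLDN4 thus differed the opposite way from CLDN1 between the PC3-labelled sorts, at a level far below it.

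CLDN7 encodes claudin-7 (chr17:7259903-7263983, minus strand), also a claudin of glandular epithelia. The DU145-labelled GFP high libraries had 0, 4 and 0 counts, against 2, 10 and 1 in GFP low. The PC3-labelled GFP high libraries had 0, 1 and 0 counts, and the GFP low ones had 0 throughout. Replicate 2 held most of the counts in both DU145-labelled sorts. The summed counts of 4 in GFP high and 13 in GFP low gave a ratio of 0.333 with an exact 95% interval of 0.0791 to 1.08, so no difference was detectable at this depth. CLDN7 shares 38 exonic bases with ELP5 on the opposite strand and 269 with AC003688.1 on its own strand, and the sources used here do not say whether counting used strand.

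OCLN encodes occludin (chr5:69492292-69558104, plus strand). It stood at 38.7, 33.2 and 27.9 CPM in DU145-labelled GFP high, against 22.9, 23.1 and 23.3 CPM in GFP low. PC3-labelled GFP high libraries held 37.7, 35.0 and 44.2 CPM, against 38.8, 32.0 and 41.1 CPM in GFP low. The DU145-labelled GFP high libraries lay above all GFP low ones and spread more widely, and the PC3-labelled sorts overlapped. Its log2 fold change was 0.51 ± 0.13 in the DU145-labelled sorts, or 0.03 with the trends in GC content and length removed, and 0.06 ± 0.13 in the PC3-labelled sorts. OCLN has a near copy, the pseudogene OCLNP1, and its estimated count was whole within 0.01 in only 3 of 12 libraries, so its reads may be divided between the copies and its level is uncertain.

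F11R encodes junctional adhesion molecule A (chr1:160995211-161021348, minus strand), which helps to place polarity proteins at the forming junction. It stood at 53.4, 61.4 and 60.0 CPM in DU145-labelled GFP high, against 70.7, 66.4 and 78.2 CPM in GFP low. PC3-labelled GFP high libraries held 26.8, 30.1 and 27.1 CPM, against 22.1, 21.1 and 21.3 CPM in GFP low. Neither line's sorts overlapped: GFP high was below GFP low in the DU145-labelled libraries and above it in the PC3-labelled ones. On the log2 scale the differences were -0.30 ± 0.09 in the DU145-labelled and 0.38 ± 0.09 in the PC3-labelled sorts. F11R shares 38.3% of its exonic bases (1853 bases) with AL591806.3 on the same strand, which is not a gene of the table. Its estimated count was whole in only 1 of 12 libraries, so its level is uncertain as well.

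LSR encodes angulin-1, also called the lipolysis-stimulated lipoprotein receptor (chr19:35248330-35267964, plus strand), which recruits tricellulin to tricellular contacts. It stood at 136, 145 and 182 CPM in DU145-labelled GFP high, against 187, 164 and 189 CPM in GFP low. In the PC3-labelled sorts it stood at 55.7, 49.6 and 50.3 CPM in GFP high, against 20.0, 26.7 and 22.1 CPM in GFP low. The DU145-labelled sorts overlapped, and the PC3-labelled sorts lay far apart, with GFP high above. The log2 fold change was -0.23 ± 0.12 in the DU145-labelled sorts and 1.19 ± 0.12 in the PC3-labelled sorts, or 2.27-fold higher in GFP high. With the trends in GC content and length removed these were 0.06 and 1.31. MARVELD2, which encodes tricellulin, was not called in either line.

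**Figure D2:**
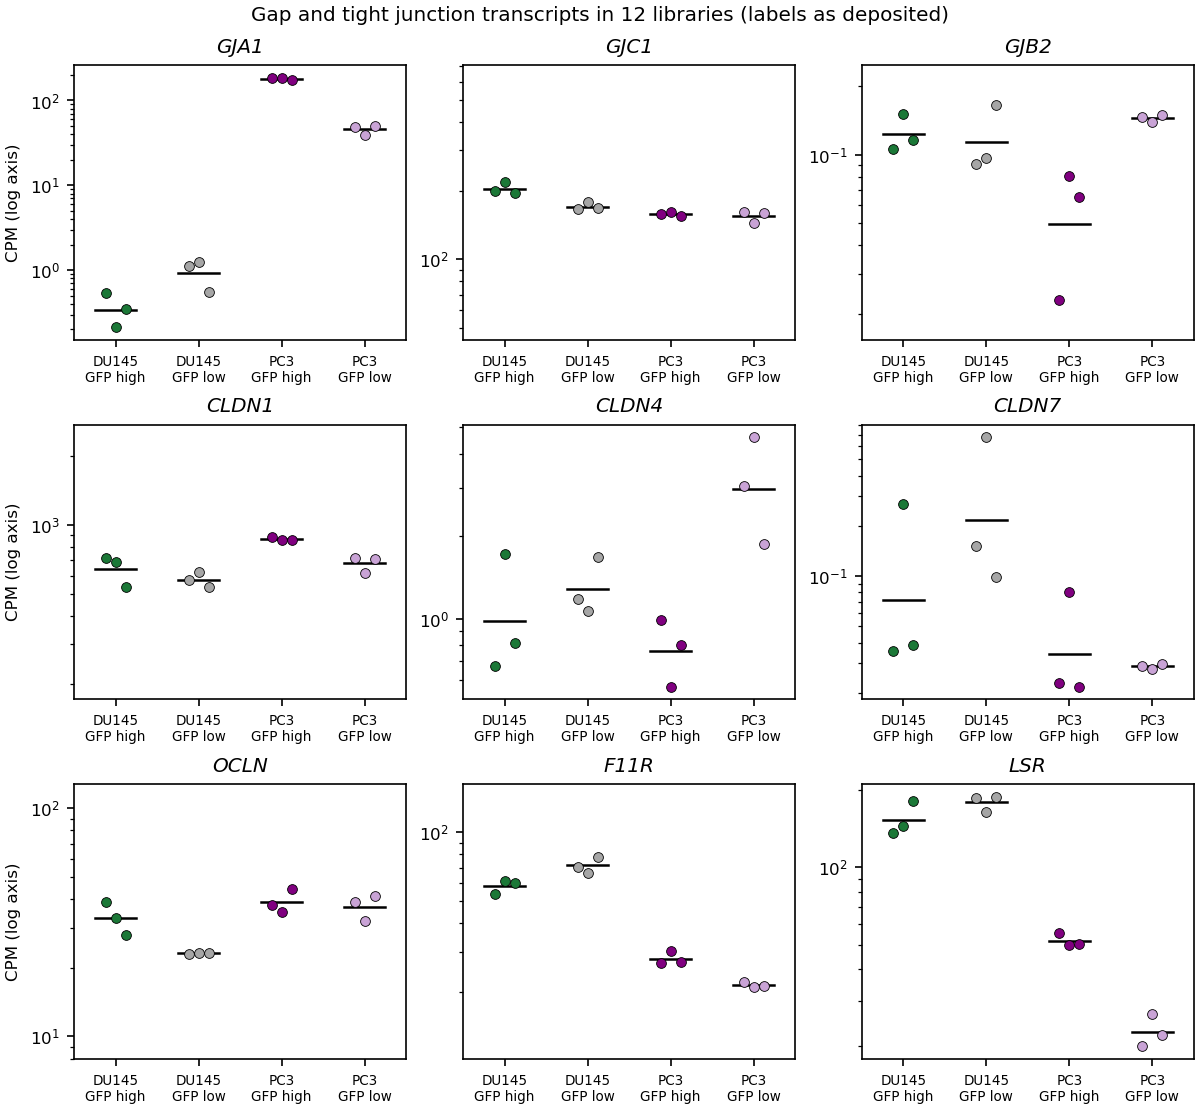
CPM on a log axis for each of the 9 genes in each library (points) with the geometric mean of the 3 libraries (bars), DU145-labelled and PC3-labelled GFP high and GFP low from left to right; a library with 0 counts is drawn at its offset of 0.5 counts. GJA1 spans 0.211 to 185 CPM over the 12 libraries, and the PC3-labelled sorts are apart for GJA1, CLDN1, CLDN4, F11R and LSR. The PC3-labelled points of GJB2 are apart too, but rest on 0 to 2 counts per library.

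In the DU145-labelled sorts 4 of the 7 tested genes passed the threshold that 27.1% of all tested genes passed: GJC1 and OCLN were higher (13.1% of all genes were called higher) and GJA1 and F11R were lower (13.9%) in GFP high. These were also the 4 without overlap, against 40.5% of all tested genes. In the PC3-labelled sorts 5 of the 7 passed, against 9.44%: GJA1, LSR, CLDN1 and F11R were higher (4.17% of all genes) and CLDN4 was lower (5.27%). The same 5 had no overlap, against 30.4%. The choice of genes used these contrasts, so nothing is read from the counts. GJA1 and F11R were lower without overlap in DU145-labelled GFP high and higher without overlap in PC3-labelled GFP high, as were 4.15% of all tested genes (520 genes). The log2 fold change in the DU145-labelled sorts minus that in the PC3-labelled sorts was -3.42 ± 0.46 for GJA1, -1.42 ± 0.17 for LSR and -0.68 ± 0.13 for F11R. It was 1.57 ± 0.60 for CLDN4, 0.45 ± 0.19 for OCLN, 0.23 ± 0.10 for GJC1 and -0.20 ± 0.14 for CLDN1. No test is given for these differences, since the genes were chosen with them in view. The median of all genes in this difference was 0.049, or -0.082 with equal medians, and all 7 signs were the same with equal medians. With the trend in GC content and length removed, OCLN turned to -0.04 and GJC1 to -0.10, and CLDN1 moved to -0.50.

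The DU145-labelled sorts differed by GC content across all genes. The median log2 fold change was 0.51 in the poorest in GC of 5 equal bins, which holds GJA1 and OCLN, and 0.20 in the next, which holds CLDN1 and GJC1. It was -0.05 in the middle bin, with F11R, -0.22 in the next, with CLDN4, and -0.26 in the richest, with LSR. The log2 fold changes of OCLN, GJC1, CLDN1, CLDN4 and LSR had the sign of their bin's median, but the sorts overlapped for CLDN1, CLDN4 and LSR. F11R stood at -0.30, with -0.05 for its bin. GJA1 stood at -1.45, with 0.51 for its bin, and at -1.76 with the trend removed. What part the trend has in the value of any of these genes was not tested. The PC3-labelled medians of the bins lay between -0.12 and 0.03, and of the 7 genes LSR moved most when the trend was removed, to 1.31. What made the libraries differ by GC content was not tested.

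**Figure D3:**
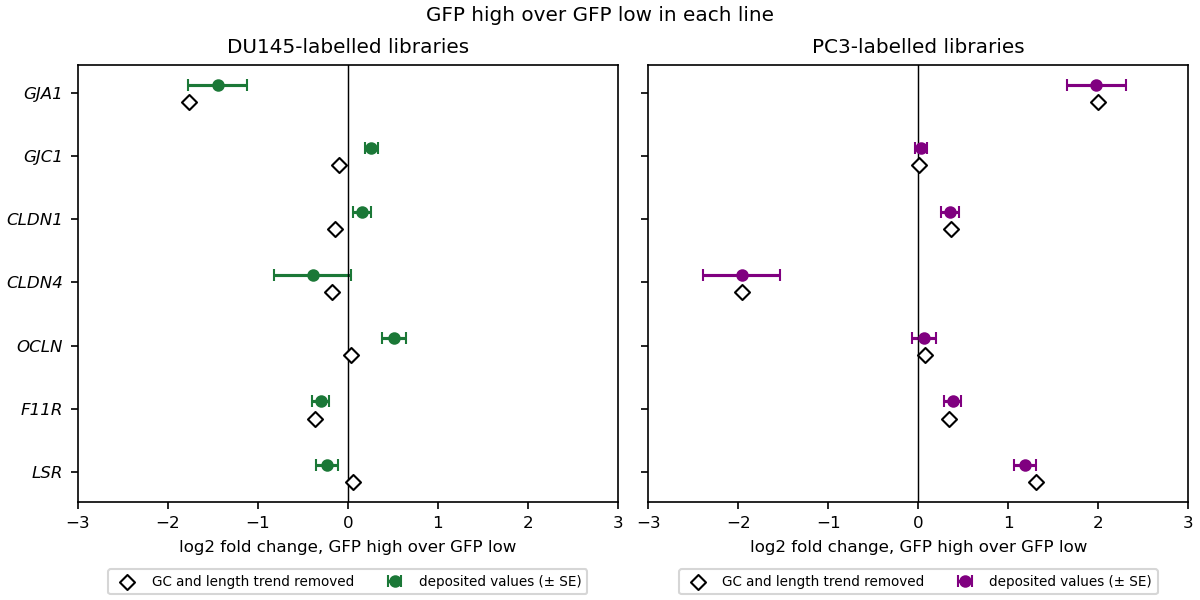
Log2 fold change of GFP high over GFP low for the 7 genes above the minimum, DU145-labelled on the left and PC3-labelled on the right, with the deposited values as filled points with their SE and the values corrected for GC content and length as open diamonds. In the DU145-labelled panel OCLN moves to 0.03 and GJC1 to -0.10, while GJA1 moves to -1.76.

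Between the lines, a contrast that the choice of genes did not use, 6 of the 7 tested genes passed the limma threshold, as did 77.5% of all tested genes. GJA1 is among the 6, but it was admitted to testing only through the PC3-labelled libraries, where it was high, so its call supports nothing and its values are given without a p. LSR, F11R and GJC1 were higher in the DU145-labelled libraries (38.3% of all genes) and GJA1, OCLN and CLDN1 lower (39.2%), and 4 of the 7 showed no overlap, against 46.9% of all genes. GJA1 had the widest gap, with a log2 fold change of DU145-labelled over PC3-labelled of -7.35 ± 0.23 over the mean of both sorts, or 163-fold lower. All 6 DU145-labelled libraries lay at or below 1.26 CPM and all 6 PC3-labelled libraries at or above 39.5 CPM. LSR was 4.83-fold higher (2.27 ± 0.09 in log2, limma adjusted p = 4.24e-11) and F11R 2.63-fold higher (1.40 ± 0.07, limma adjusted p = 3.64e-10) in the DU145-labelled libraries, with no overlap in either gene.

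The other line differences were small. OCLN and CLDN1 were lower in the DU145-labelled libraries by log2 values of -0.46 ± 0.10 and -0.34 ± 0.07 (limma adjusted p = 0.000579 and 0.00078), with overlapping libraries. GJC1 was 0.25 ± 0.05 higher (limma adjusted p = 0.000337), without overlap, but was not called after quantile normalization (0.10, adjusted p = 0.111). CLDN4 did not pass, at -0.43 ± 0.30 (limma adjusted p = 0.209, 95% interval -1.08 to 0.22). Equal medians moved the median of all genes in this contrast to 0.134, from -0.011, and left GJC1 at 0.40, OCLN at -0.31 and CLDN1 at -0.19, each with the same sign.

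Per kilobase of the longest transcript, CLDN1 was the most abundant of the 9 in every group, at 186 ± 27.6 CPM per kilobase in DU145-labelled GFP high, against 166 ± 12.1 in GFP low, and at 249 ± 4.27 against 195 ± 15.9 in the PC3-labelled sorts (SD, n = 3 each). In both DU145-labelled sorts LSR, GJC1, F11R and OCLN followed in that order, each apart from the next by more than their SDs. In PC3-labelled GFP high GJA1 came next at 57.5 ± 1.64 CPM per kilobase, followed by LSR at 20.9 ± 1.34 and GJC1 at 20.7 ± 0.350, which did not differ beyond their spread, and by OCLN at 6.05 ± 0.741 and F11R at 5.79 ± 0.378, which did not either. In PC3-labelled GFP low the order was CLDN1, GJC1 at 20.2 ± 1.26, GJA1 at 14.7 ± 1.87, LSR at 9.25 ± 1.38, OCLN at 5.79 ± 0.736 and F11R at 4.44 ± 0.107. CLDN4, CLDN7 and GJB2 stayed below 1 CPM per kilobase in all groups, as did GJA1 in the DU145-labelled ones.

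The rest of the junction was followed with 78 further genes, of which 71 were in the table and 38 were tested. In the DU145-labelled sorts 11 of the 38 were called by limma, a share close to the 27.1% of all tested genes. Of these, 8 were higher (13.1% of all genes) and 3 lower (13.9%) in GFP high, with a median log2 fold change of 0.19, against -0.01 over all tested genes. PC3-labelled GFP high had 2 higher (4.17% of all genes) and 3 lower (5.27%), with a median of -0.07 against -0.02. The difference between the lines passed for 4 of the 38, against 15.9% of all tested genes. All 11 DU145-labelled calls were lost without GFP high replicates 1 and 2, and with the trend in GC content and length removed 5 of the 11 were called in the same direction among 10. The 5 PC3-labelled calls were all called in the same direction with the trend removed, among 12, and 2 calls, PARD6G among them, were left without GFP low replicates 2 and 3.

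Cytoplasmic plaque proteins, which tie the strands to actin, were the list with the most genes tested. Of 15, limma called 6 higher (13.1% of all genes) and 1 lower (13.9%) in DU145-labelled GFP high, and 1 higher in PC3-labelled GFP high (4.17%). AMOTL1, an angiomotin that binds YAP, averaged 111 ± 5.75 CPM in DU145-labelled GFP high, against 59.5 ± 3.40 CPM in GFP low (limma adjusted p = 0.000554). TJP1 (ZO-1), a scaffold that binds claudins, averaged 150.2 ± 21.2 CPM in DU145-labelled GFP high, against 100.1 ± 9.61 CPM in GFP low (limma adjusted p = 0.00349; SD, n = 3 each). Neither was called in the PC3-labelled sorts. Both were named for their DU145-labelled calls, which enter the difference between the lines. That difference passed for both, at 0.79 for AMOTL1 (limma adjusted p = 0.00836) and 0.54 for TJP1 (limma adjusted p = 0.0263). TJP1 lost this call, at adjusted p up to 0.0714, without DU145-labelled GFP high replicate 1 or 2 or GFP low replicate 3, or PC3-labelled GFP high replicate 1 or 2 or GFP low replicate 1 or 3. Without DU145-labelled GFP high replicates 1 and 2 both lost it, at adjusted p = 0.0988 for AMOTL1 and 0.273 for TJP1. MAGI3, a PDZ scaffold, was higher in DU145-labelled GFP high by 0.51 ± 0.15 (limma adjusted p = 0.0294). Its call was lost without GFP high replicate 1 or 2 or GFP low replicate 1 or 3 (adjusted p up to 0.114), and after correction for GC content and length.

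Of the polarity proteins, which position the junction, 8 were tested. In DU145-labelled GFP high 2 were called higher (13.1% of all genes). In PC3-labelled GFP high 1 was called higher (4.17%) and 1 lower (5.27%). PARD3B was higher in DU145-labelled GFP high by 1.18 ± 0.30 (limma adjusted p = 0.0169) and PARD6B by 0.69 ± 0.22 (limma adjusted p = 0.0348). Both calls were lost without replicate 1 or 2 of GFP high or replicate 1 or 3 of GFP low, at adjusted p up to 0.0681 for PARD3B and 0.152 for PARD6B. The PARD6B call was also lost after correction for GC content and length, and with limma without trend. In PC3-labelled GFP high PARD6G was higher by 1.72 ± 0.41 (limma adjusted p = 0.018), from 101 counts in GFP high and 28 in GFP low. PRKCZ, an atypical protein kinase C of the polarity complex, was lower there by -0.57 ± 0.11 (limma adjusted p = 0.00462), at 37.4 ± 0.718 CPM, against 56.0 ± 7.14 CPM in GFP low. The estimated PRKCZ counts were not whole in the PC3-labelled libraries, such as 795.21 in GFP high replicate 1, so its level is uncertain. The PRKCZ call was lost without GFP low replicates 2 and 3, and that of PARD6G without GFP high replicate 1 or 2 or with the line fitted alone (adjusted p up to 0.0913).

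Of the other connexins and pannexins 3 were tested. Limma called 1 lower in DU145-labelled GFP high (13.9% of all genes) and 1 lower in PC3-labelled GFP high (5.27%). PANX2 fell in DU145-labelled GFP high, at 3.36 ± 0.838 CPM against 6.99 ± 0.867 CPM in GFP low (limma adjusted p = 0.029; SD, n = 3 each), a call lost after correction for GC content and length, and without GFP high replicate 1 or 2 or GFP low replicate 1 or 3 (adjusted p up to 0.129). GJA3, which encodes connexin 46 of the lens, fell in PC3-labelled GFP high, at 2.80 ± 0.597 CPM against 5.73 ± 0.390 CPM in GFP low (limma adjusted p = 0.0145), and lost the call after quantile normalization and without PC3-labelled GFP high replicate 1 or 2 or GFP low replicate 2, or GFP low replicates 2 and 3 together (adjusted p up to 0.208). GJA3 and GJA1 thus differed in opposite directions between the PC3-labelled sorts.

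Of the other claudins 7 were tested. In DU145-labelled GFP high 1 was called lower (13.9% of all genes), and in PC3-labelled GFP high 1 was called lower (5.27%). CLDN11, known from myelin and from the testis, fell in DU145-labelled GFP high, at 12.8 ± 0.902 CPM against 24.6 ± 2.36 CPM in GFP low (limma adjusted p = 0.0208), a call lost without GFP high replicate 1 or 2 or GFP low replicate 1 or 3 (adjusted p up to 0.085). Between the lines CLDN11 was 5.39 ± 0.18 in log2 higher in the DU145-labelled libraries. It passed the minimum only through those libraries, so no p is given for that contrast. CLDN3, like CLDN4 a claudin of glandular epithelia, fell in PC3-labelled GFP high with 7 counts in all, against 48 in GFP low (-3.20 ± 0.81, limma adjusted p = 0.0245), and its call was lost after quantile normalization, with the line fitted alone, and without GFP high replicate 1 or 2 or GFP low replicate 1 or 2, or GFP low replicates 2 and 3 together (adjusted p up to 0.129). CLDN3 passed the minimum only through PC3-labelled GFP low replicates 1 and 2 and DU145-labelled GFP high replicate 3. These were on the high side of their sorts, so the CLDN3 call supports nothing. None of the 5 other tight junction membrane proteins tested was called by limma in either line. Of all tested genes, 27.1% were called in the DU145-labelled and 9.44% in the PC3-labelled sorts, so nothing is read from 5 genes.

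**Figure D4:**
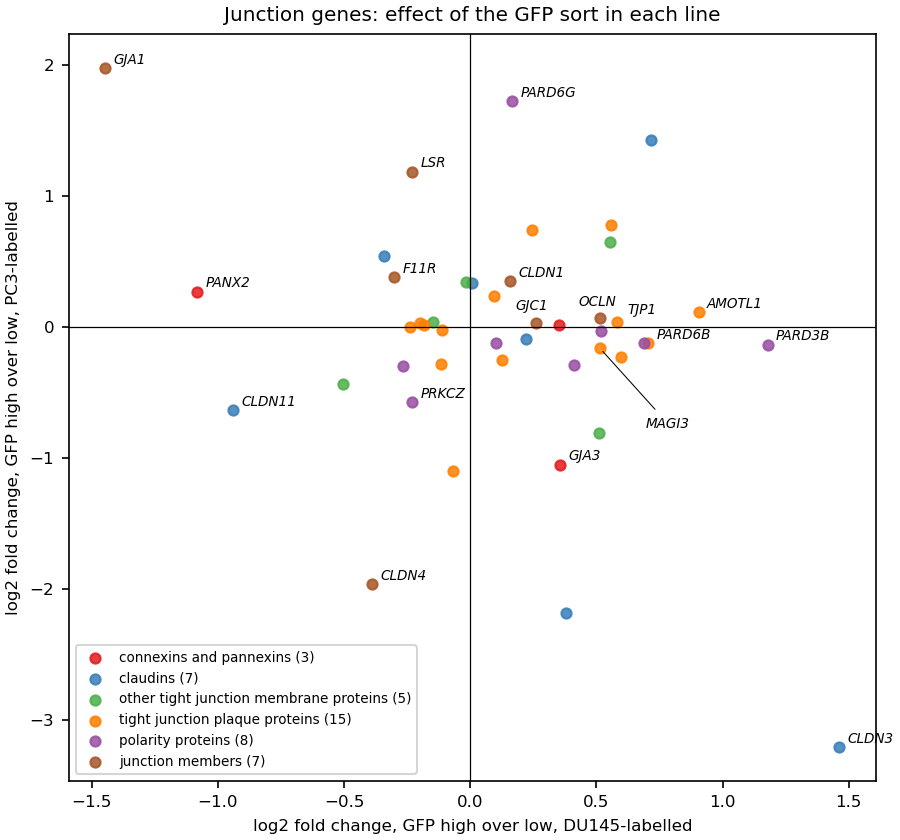
Log2 fold change of GFP high over GFP low in the DU145-labelled (horizontal axis) and PC3-labelled (vertical axis) sorts for the 7 genes above the minimum and 38 other junction genes, coloured by list; names mark the 7 genes and called genes of each list that the text describes. GJA1 lies farthest into the upper left, at -1.45 and 1.98.

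Of 12 regulators of epithelial junction genes 5 were tested. Limma called 2 higher (13.1% of all genes) and 1 lower (13.9%) in DU145-labelled GFP high, and 1 lower in PC3-labelled GFP high (5.27%). SNAI1, a repressor of claudin and occludin genes, fell in GFP high of both lines, at 13.2 ± 1.76 CPM in DU145-labelled GFP high, against 19.9 ± 1.82 CPM in GFP low (limma adjusted p = 0.046), and at 1.88 ± 0.264 against 4.12 ± 1.07 CPM in the PC3-labelled sorts (limma adjusted p = 0.00394; SD, n = 3 each). The DU145-labelled SNAI1 call was lost after correction for GC content and length, without any 1 of the DU145-labelled libraries but GFP high replicate 3, and without PC3-labelled GFP high replicate 1 or 2 (adjusted p up to 0.169). The PC3-labelled one was lost without GFP low replicates 2 and 3. ZEB1 and ZEB2, repressors of the same class, rose in DU145-labelled GFP high by 0.98 ± 0.27 and 1.30 ± 0.28 (limma adjusted p = 0.0221 and 0.00873), and both calls were lost after that correction, with voom on the estimated counts, and without GFP high replicates 1 and 2. ZEB1 also lost it without DU145-labelled GFP high replicate 1 or 2 or GFP low replicate 3 (adjusted p up to 0.0996). ZEB2 also lost it with the line fitted alone, and rests on 37 counts in DU145-labelled GFP high and 16 in GFP low. It averaged 0.873 CPM in DU145-labelled GFP high, against 0.368 CPM in GFP low, and 32.0 against 27.1 CPM in the PC3-labelled sorts. Its log2 fold change of DU145-labelled over PC3-labelled was -5.74 ± 0.20. Like GJA1 it passed the minimum only through the PC3-labelled libraries, so no p is given for that contrast.

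After each line's mean was subtracted, the genes whose pattern over the 12 libraries was most like that of GJA1, of 1025 candidates, were FABP5 (Pearson r = 0.913), C15orf52 (0.876), CITED2 (0.875), TNF (0.874) and COL5A2 (0.870). All 5 had negative log2 fold changes in the DU145-labelled sorts, between -1.47 and -0.24, and positive ones in the PC3-labelled sorts, between 0.73 and 1.29. Those most like LSR were ICAM1 (0.983), FEZ1 (0.978), KIFC3 (0.975), PLEKHG3 (0.973) and COL4A2 (0.969), with log2 fold changes between -0.33 and -0.06 in the DU145-labelled sorts and between 0.96 and 2.70 in the PC3-labelled sorts. GJA1 and LSR correlated at 0.748. These correlations describe 12 libraries that share 4 group means and library-wide trends, and the genes were ranked by them, so no p is given.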

How the data were processed

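RNA sequencing of total RNA gave 12 libraries, grouped by their labels. STAR and DESeq2 are the tools of the authors, per the submitters' processing notes, which give no versions. The sources used here name no genome build, counting method or strand setting. The deposited values are, per the labels, log2 normalized counts, and from the values themselves they were read as log2 CPM with an offset of 0.5 counts: the lowest step of each column lies where 1 count would fall. Undoing this gave estimated counts, whole within 0.01 for 86.9% of values in the median library. All 12 columns were used.

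The comparisons used limma 3.58.1 under R 4.3.3 (mean-variance trend, 4 group means, 8 residual degrees of freedom, two-sided, Benjamini-Hochberg adjustment over 12527 genes, adjusted p under 0.05). The fit was also run on simulated data with known changes. Those libraries were drawn independently and without a trend in GC content, so that run does not cover such trends. Intervals for summed counts are exact and conditional on the totals. Positions, GC content and transcript lengths came from GENCODE 29 on GRCh38, by identifier for 18901 genes; promoters came from RefSeq. The trend in GC content and length was removed per library against its line's mean with loess (span 0.4).

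The 9 genes and the lists were chosen with earlier results of these data known. The other genes named are, per list, up to 4 past the threshold in either line's comparison of the sorts with the smallest p; the 5 genes most correlated with GJA1 and with LSR (mean log2 value of at least 4, within-line SD of at least 0.3); and CTNNA1, LEF1 and AXIN2 as checks. Some genes that this rule names are not reported here. MARVELD2 and the marker genes are named outside this rule. Alternatives were a minimum of 4 or none, library medians made equal, quantile normalization, limma without trend or robust, the replicate block, the GC and length correction with and without it, voom on the estimated counts, each line alone, an adjusted p under 0.01, and leaving out libraries. Libraries of a group differed by 5.48 to 36.5 times the variance of sampling, so none was taken for a library deposited in duplicate. This does not show that they came from separate cultures.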

Additional observations from a re-analysis of the deposited data

Results flagged for a closer look

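The log2 fold change in the DU145-labelled minus that in the PC3-labelled sorts was called (limma, adjusted over 12527 genes) in 5 named genes outside the 9. They are junction and regulator genes, named for a call in a line's own comparison. That comparison enters the difference, so nothing is read from their number. Of all 38 other junction genes tested, 4 passed for the difference, against 15.9% of all tested genes. In the 5 named genes the difference was 1.41 for GJA3 (adjusted p = 0.016), 4.67 for CLDN3 (adjusted p = 0.017), 0.79 for AMOTL1 (adjusted p = 0.00836), 0.54 for TJP1 (adjusted p = 0.0263) and 1.57 for ZEB1 (adjusted p = 0.0169). After quantile normalization GJA3 and CLDN3 lost the call (adjusted p = 0.0947 and 0.0919), GJA3 also without PC3-labelled GFP low replicates 2 and 3. Without DU145-labelled GFP high replicates 1 and 2 it was lost by AMOTL1, TJP1 and ZEB1 (adjusted p = 0.0988, 0.273 and 0.173), and TJP1 lost it under 9 other settings too. CLDN3 rests on 35 and 15 counts in DU145-labelled GFP high and GFP low and 7 and 48 in the PC3-labelled sorts. It passed the minimum for testing only through libraries on the high side of their sorts, so its call supports nothing. Among the 9, GJA1 differed by -3.42 and F11R by -0.68, with every library of GFP high on the opposite side of GFP low in the lines. No test is given for these last differences, since the genes were chosen with them in view.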

How the results depend on the processing

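Leaving out DU145-labelled GFP high replicates 1 and 2 gave 170 calls in the DU145-labelled sorts (3389 with all libraries), 0 of the other junction genes (11) and 649 in the difference between the lines (1990). Leaving out PC3-labelled GFP low replicates 2 and 3 gave 410 calls in the PC3-labelled sorts (1182), 2 of the other junction genes (5) and 1188 in the difference. Over single left-out libraries the counts ran from 896 (without GFP high replicate 1) to 5597 (without GFP high replicate 3) in the DU145-labelled sorts, 660 to 1492 in the PC3-labelled sorts, 1145 to 3661 in the difference and 9323 to 9803 between the lines (9710). For the other junction genes they ran from 3 to 15 in the DU145-labelled and 2 to 7 in the PC3-labelled sorts, and for the 9 genes between the lines the count was 6 in every case.

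An adjusted p under 0.01 left 784, 526 and 708 calls in the DU145-labelled sorts, the PC3-labelled sorts and the difference, and 3 and 2 other junction genes. Quantile normalization gave 2252 calls and 7 other junction genes in the DU145-labelled sorts. The minimum of 4 left 2 other junction genes in the PC3-labelled sorts, where fewer genes were tested. Removing the trend in GC content and length gave 2498 calls and 12 other junction genes in the PC3-labelled sorts. The causes of these moves were not tested. GJC1 in the DU145-labelled sorts turned to -0.10 with that trend removed, with and without the replicate block. Between the lines CLDN4 reached -1.36 (limma adjusted p = 0.0066) after quantile normalization, the setting under which GJC1 was lost. CTNNA1 between the lines turned to -0.0136 there. Of the other values of the 7 tested genes, 647 moved by under 1 SD or, between the lines, kept their side of the threshold. A further 31 moved by 1 SD or more. A move of under 1 SD could still change the sign, as for OCLN in the PC3-labelled sorts, which reached -0.04. Of the other named genes' calls 940 held and 118 were lost over all settings.

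Replicate numbers are shared by the sorts of a line. Same-numbered libraries correlated in their deviations at -0.02, 0.09 and 0.21 in the DU145-labelled and 0.06, 0.20 and 0.14 in the PC3-labelled sorts. Differently numbered ones correlated at -0.23 to 0.18 and at -0.17 to 0.04. In the PC3-labelled sorts every same-numbered value was thus above every differently numbered one. Whether same-numbered libraries are pairs was not settled, and the main fit did not pair them. The replicate block gave 4842 calls in the DU145-labelled sorts (3389 without it), 3321 in the difference and 8 other junction genes in the PC3-labelled sorts. With the trend in GC content and length also removed it gave 2744 calls in the PC3-labelled sorts and 3432 in the difference. Other junction genes called in the PC3-labelled sorts were then 13. Depth limits GJB2, CLDN7 and the DU145-labelled levels of GJA1, where single libraries held 0 to 19 counts.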
